A study of Mus musculus with 7 samples.

Results

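Type I interferon-stimulated genes were followed in B cells isolated from mouse spleens. The list held 39 genes, and 36 of them had at least 1 probe set whose annotation named that gene alone, out of 18193 genes so represented on the array. Where a gene had several such probe sets, the one brightest on average across all 7 arrays stood for it. Of the 36 genes, 30 were above a log2 value of 4 on at least 3 arrays and were tested, beside 9517 genes in all. Values that do not exceed 4 are called not above background. Usp18 passed this filter through the transgenic arrays alone.

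The samples came from 3 Eu-miR-155 transgenic mice (TG) of the FVB strain and 4 wild-type (WT) FVB mice. In such mice an enhancer of the antibody heavy chain gene, Eµ, drives miR-155 in cells of the B lineage. The labels give no ages, founder lines or stimulation of the cells, and name no other allele or agent in either group. The B cells of each spleen were separated with a magnetic kit, and each array holds RNA of 1 sample, taken as 1 mouse. The labels do not say from which animals the samples came, so p-values measure the spread between these samples. The mature strand of the overexpressed RNA is shown for reference, with its seed (bases 2 to 8), the stretch that pairs with messenger RNAs, in capitals, from RefSeq on GRCm38.p6 (chr16:84714143-84714165, plus strand).
mmu-miR-155-5p: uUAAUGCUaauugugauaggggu

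Type I interferons are secreted proteins that cells release when they sense viral nucleic acid. They bind the receptor made of IFNAR1 and IFNAR2, whose kinases JAK1 and TYK2 activate STAT2. With IRF9 it forms part of a complex called ISGF3, which binds the interferon-stimulated response element in the promoters of antiviral genes. The products cut, bind or sense viral RNA, block its translation, or feed back on the signal. B cells carry the receptor and hold a basal level of many of these genes. Several of them, such as Irf1, Gbp2, Gbp3, Igtp and Cxcl10, are also induced by interferon gamma, which T cells and natural killer cells secrete.

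The arrays differed in more than genotype. The labels give no sex, but the female-specific RNA Xist was at 13.73 to 13.93 on the TG arrays and at 13.79, 13.61, 2.22 and 2.81 on WT replicates 1 to 4, while the Y-linked Eif2s3y was above 4 on WT replicates 3 and 4 alone. By these genes WT replicates 3 and 4 were male and the other 5 arrays female. All 8 B cell markers with a probe set were above 4 on every array, with list means of 12.85 to 13.31 on TG and 13.43 to 13.52 on WT arrays. Markers of other blood cells were also present on TG arrays. The granulocyte list (11 genes, Mmp8 and Mmp9 not above background anywhere) averaged 7.04 to 8.11 on TG and 2.68 to 3.43 on WT arrays. The natural killer list (7 genes, Ncr1 and Eomes not above background) averaged 5.0 to 7.09 on TG and 2.99 to 3.08 on WT arrays, and the erythroid list (6 genes, Alas2 not above background) averaged 6.01 to 8.27 on TG and 4.94 to 5.0 on WT arrays. The conventional dendritic cell list (5 genes, Cd209a not above background) averaged 5.16 to 6.88 on TG and 3.83 to 4.26 on WT arrays. The macrophage list (12 genes, with Fcgr1, C1qc and Cd14 not above background) averaged 4.96 to 6.54 on TG and 3.97 to 5.02 on WT arrays. In that list 1 gene, Spic, was lower on every TG array (8.05 to 8.26, against 8.82 to 9.37 on WT arrays). Lyz2 overlapped, at 11.45 on WT replicate 4 and 10.85 on TG replicate 1. TG replicate 3 stood apart: its T cell list (6 genes) averaged 8.51, against 3.31 and 3.56 on TG replicates 1 and 2 and 2.95 to 3.02 on WT arrays. In such bulk samples more cells of a type and more RNA per cell cannot be told apart, and the part of other cells in the values below was not tested.

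Most interferon-stimulated genes leaned upward in TG arrays and few passed the test. Of the 30 genes tested, Mx1 and Oas1a rose, Stat2 fell, and 27 did not pass at an adjusted p under 0.05 (limma, adjusted over all probe sets tested). Over all 9517 genes 8.11% passed as higher and 2.56% as lower, so the share that passed among the interferon-stimulated genes was near the background. The fitted difference was positive for 26 of the 30 and negative for 4, against 4805 and 4712 of the 9517 genes tested. Its median was 0.53 on the log2 scale, against 0.0022 over all genes tested, and it ran from -0.40 (Stat2) to 2.20 (Mx1), beside Usp18, fitted at 2.88 with no WT array above background. A fitted difference of 2-fold or more upward was reached by 11 of the 30, against 6.15% of all genes, and none of the 30 was lower by as much. With TG replicate 3 left out it was reached by 5, against 4.76% of all genes. At an unadjusted p under 0.05 there were 10 of 30, against 30.9% of all genes. Every TG array lay above every WT array for 9 genes (19.5% of all genes), and every TG array lay below every WT array for 2 (10.4% of all genes), so 11 did not overlap (29.9% of all genes). With TG replicate 3 left out the median difference was 0.21, against 0.03 over all genes. The difference was then positive for 22 of the 30, against 5372 of all 9517. Set against the 2 female WT arrays alone the median was 0.29, with 23 positive, against 0.0005 and 4778 over all genes. Usp18 had to differ to enter the test. Without it 25 of 29 were positive, 10 reached 2-fold (4 without TG replicate 3), 10 did not overlap and the median was 0.48 (0.19 without TG replicate 3).

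**Figure D1:**
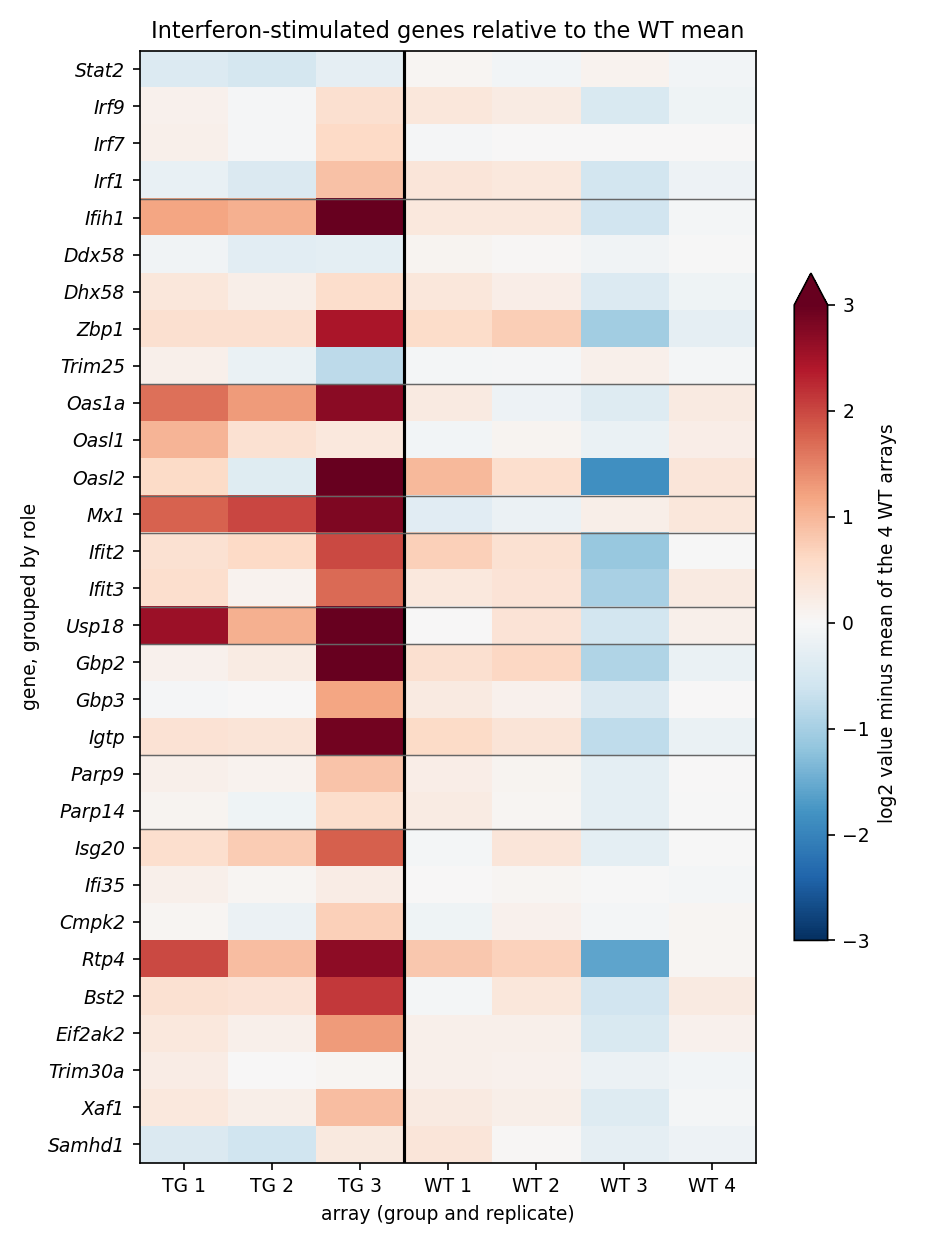
The log2 value of each of the 30 interferon-stimulated genes tested, minus the mean of the 4 WT arrays, is shown by colour on each array (columns) with genes grouped by role (rows). The column of TG replicate 3 is the reddest, being the highest array for 24 of the 30 genes, and that of WT replicate 3 is the bluest, being the lowest for 22; colours stop at 3 in either direction.

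Mx1 encodes a GTPase that blocks the replication of influenza-like viruses, and many laboratory mouse strains carry a defective allele of it. It had values of 6.85, 7.09 and 7.88 on TG replicates 1 to 3, against 4.74, 4.91, 5.25 and 5.41 on WT replicates 1 to 4. All TG arrays were more than 1 unit above the highest WT array. The rise was 2.20 ± 0.28 on the log2 scale (SE, 3 TG and 4 WT arrays; 4.58-fold; limma adjusted p = 0.0134), and it was 1.89 with TG replicate 3 left out. The call was lost without TG replicate 2 (adjusted p = 0.0628) or WT replicate 2 (0.0573), with no filter on low values (0.0604) and against the female WT arrays alone (0.110, with a larger difference of 2.45). Its relative Mx2 was at 3.96, 3.41 and 3.41 on TG arrays and at 3.41 on every WT array, not above background on any array.

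The OAS family senses double-stranded RNA, and its active enzymes make the 2-5A messenger that switches on RNase L. Oas1a was at 9.29, 8.92 and 10.36 on TG replicates 1 to 3, against 7.93, 7.49, 7.26 and 7.91 on WT replicates 1 to 4. The groups did not overlap, and the lowest TG array was about 1 unit above the highest WT array. Oas1a rose by 1.88 ± 0.36 (SE; 3.67-fold; limma adjusted p = 0.0300) and by 1.46 with TG replicate 3 left out. Its call was lost without TG replicate 2 (adjusted p = 0.0716), without WT replicate 1, 2, 3 or 4 (0.0643, 0.0879, 0.0765 and 0.0689), against the female WT arrays alone (0.174) and with no filter (0.110). Oasl1, a relative that lacks the enzyme activity, was at 6.22, 5.65 and 5.51 on TG and 5.13, 5.28, 5.0 and 5.41 on WT arrays. It was the 1 tested gene of the family that was highest on TG replicate 1, and it did not pass (0.59 ± 0.19, adjusted p = 0.0979). Oasl2 overlapped between the groups, at 4.95, 4.00 and 7.37 on TG and 5.36, 4.89, 2.52 and 4.73 on WT arrays. Oas2 and Oas3 were not above background on any array, and Oas1g had no probe set naming it alone.

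**Figure D2:**
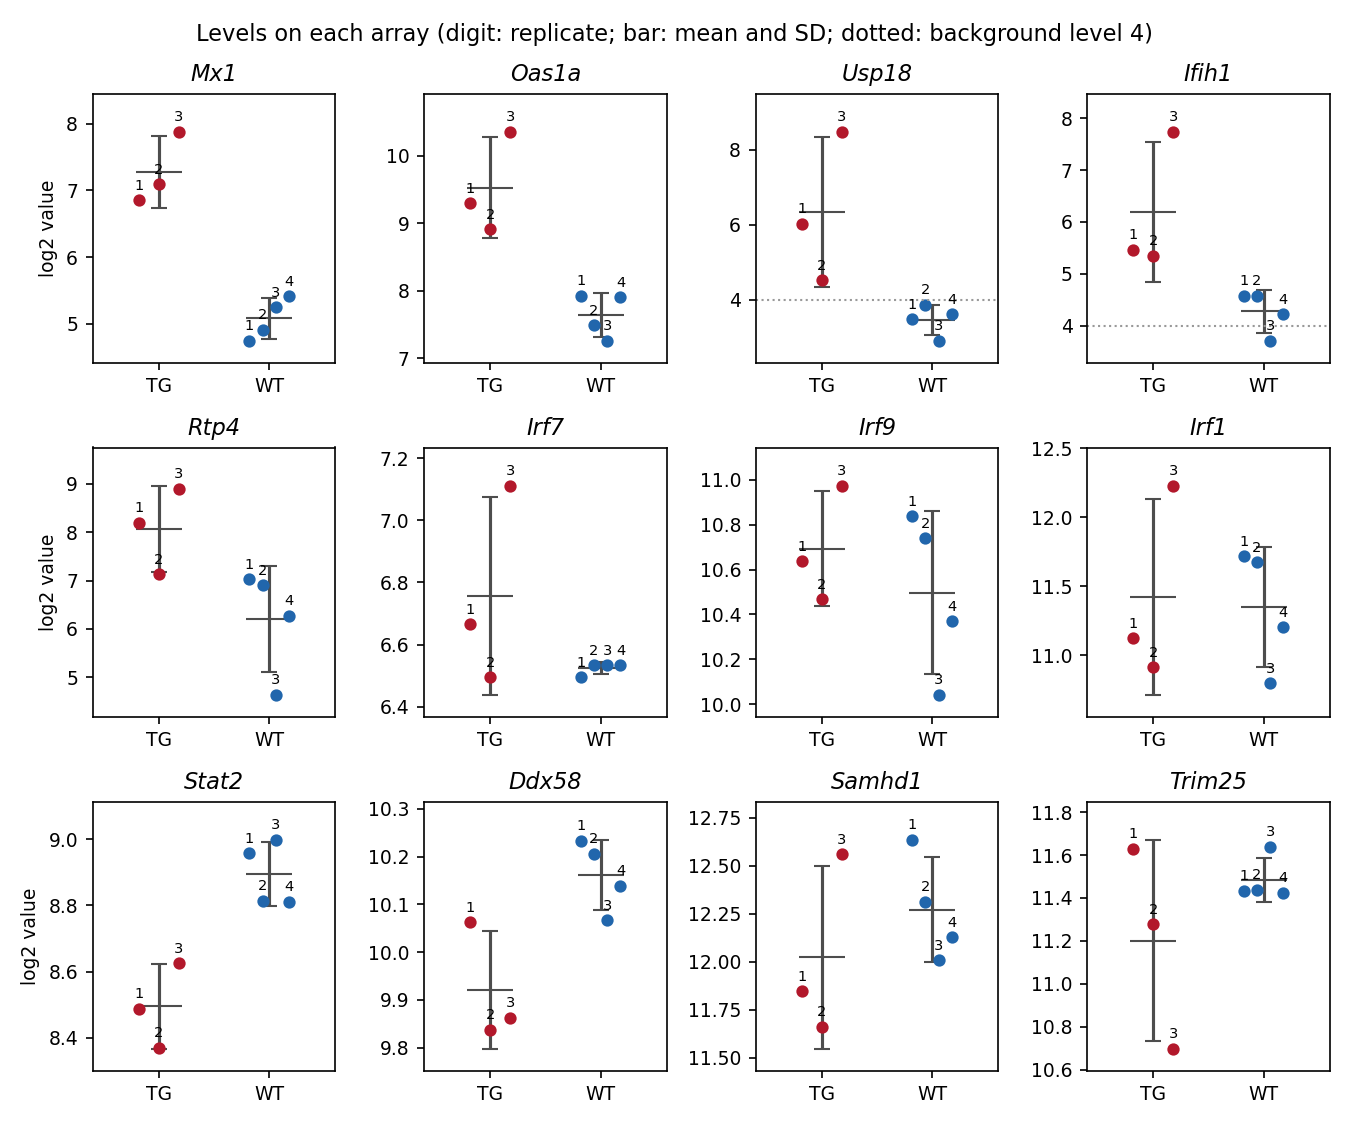
Each panel gives the log2 level of 1 gene on the 3 TG arrays (left, red) and the 4 WT arrays (right, blue), with the replicate number beside each point, the mean and SD as bars and the background level of 4 as a dotted line where it falls in range; the vertical scales differ between panels and do not start at 0. Mx1 and Oas1a lie higher and Stat2 lower on every TG array than on any WT array, while Irf9 and Irf1 overlap.

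Of the 4 transcription factors of the response 1 passed, as lower. Stat2, the subunit of ISGF3 that activates transcription, was at 8.49, 8.37 and 8.63 on TG replicates 1 to 3, against 8.96, 8.81, 9.0 and 8.81 on WT replicates 1 to 4. Every TG array was below every WT array. Stat2 fell by 0.40 on the log2 scale (-0.40 ± 0.09, SE; 0.758 of the WT level; limma adjusted p = 0.0386). A second probe set of Stat2 also passed (-0.61 ± 0.08, adjusted p = 0.0130), with 6.72, 6.74 and 6.59 on TG and 7.32, 7.36, 7.33 and 7.16 on WT arrays. The call of the brighter one was lost without TG replicate 1 or 2 (0.0697 and 0.118), without WT replicate 1, 2, 3 or 4 (0.0897, 0.0856, 0.0883 and 0.0749), against the female WT arrays alone (0.178) and with no filter (0.106). Irf9, the DNA-binding subunit of ISGF3, was at 10.64, 10.47 and 10.97 on TG and 10.84, 10.74, 10.04 and 10.37 on WT arrays. Its groups overlapped, and its difference of 0.20 ± 0.22 (adjusted p = 0.562) turned negative against the female WT arrays alone (-0.10). Irf7, which amplifies interferon production, was at 6.67, 6.49 and 7.11 on TG arrays and between 6.49 and 6.53 on the WT arrays (difference 0.23 ± 0.14, adjusted p = 0.310). Irf1, a factor that interferon gamma also induces, was at 11.12, 10.91 and 12.23 on TG and 11.72, 11.67, 10.80 and 11.20 on WT arrays. Its difference was 0.07 ± 0.37 (limma adjusted p = 0.913). It turned negative with TG replicate 3 left out (-0.33) and with WT replicate 3 left out (-0.11). It was also -0.27 against the female WT arrays alone. Leaving out either of these arrays by itself, TG replicate 3 or WT replicate 3, was thus enough to change its sign.

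Promoters were searched for the core of the response element that ISGF3 and other IRF proteins bind, taken as 2 copies of GAAA with any 2 bases between them, or the same of TTTC for the other strand. The windows were those of RefSeq on GRCm38.p6, 250 bases before to 50 bases after each start. A window was found for 30 of the 39 genes; Dhx58, Mx1, Mx2, Oas2, Parp14, Parp9, Rtp4, Usp18 and Zbp1 were not matched. At least 1 match was found for 17 of the 30 (56.7%), against 3.99% of the 27025 genes with a window. Among the tested genes with a window it was found for 3 of the 6 with TG arrays above all WT arrays, for both of those with TG arrays below all WT arrays and for 6 of the 15 whose groups overlapped. A match describes the letters and not a bound site. Of the 4 genes shown next, Oas1a and Stat2 passed the test of TG against WT, and Ifih1 and Ddx58 did not. Windows of 4 genes are printed 5′ to 3′ on the gene's strand with the matches in capitals, because genes on opposite sides of the comparison carry the same core: Oas1a (chr5:120907476-120907775, minus) and Ifih1 (chr2:62646206-62646505, minus) were higher on every TG array, and Stat2 (chr10:128270248-128270547, plus) and Ddx58 (chr4:40239776-40240075, minus) were lower on every TG array.
Oas1a: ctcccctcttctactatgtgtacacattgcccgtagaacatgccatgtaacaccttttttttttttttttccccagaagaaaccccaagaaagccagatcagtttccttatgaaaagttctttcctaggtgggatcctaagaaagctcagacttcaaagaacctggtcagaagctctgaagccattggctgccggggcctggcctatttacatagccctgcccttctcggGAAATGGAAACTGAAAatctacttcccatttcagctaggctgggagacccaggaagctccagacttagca
Ifih1: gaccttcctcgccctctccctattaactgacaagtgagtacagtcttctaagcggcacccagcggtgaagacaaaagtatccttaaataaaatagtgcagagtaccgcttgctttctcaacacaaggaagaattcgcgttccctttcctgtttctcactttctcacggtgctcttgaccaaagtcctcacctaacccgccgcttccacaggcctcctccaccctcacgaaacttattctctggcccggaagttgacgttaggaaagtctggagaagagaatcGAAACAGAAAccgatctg
Stat2: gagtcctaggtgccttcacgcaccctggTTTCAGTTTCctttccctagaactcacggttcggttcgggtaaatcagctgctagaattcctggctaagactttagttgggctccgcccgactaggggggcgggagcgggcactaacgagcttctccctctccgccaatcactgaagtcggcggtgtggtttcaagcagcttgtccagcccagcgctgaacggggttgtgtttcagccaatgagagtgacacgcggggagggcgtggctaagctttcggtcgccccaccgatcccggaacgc
Ddx58: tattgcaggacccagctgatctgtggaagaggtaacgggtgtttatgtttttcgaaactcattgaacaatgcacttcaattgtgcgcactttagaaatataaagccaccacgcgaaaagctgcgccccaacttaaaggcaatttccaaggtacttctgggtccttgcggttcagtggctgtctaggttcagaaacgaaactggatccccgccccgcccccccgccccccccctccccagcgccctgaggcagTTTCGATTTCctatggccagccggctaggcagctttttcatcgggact
In Oas1a a pair of overlapping matches begins 20 bases before the start. In Stat2 the match begins 222 bases before it, and in Ifih1 and Ddx58 it lies just past the start.

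The cytoplasmic RNA sensors lay on both sides of the WT levels, and none passed. Ifih1 encodes MDA5, the sensor of long double-stranded RNA. It was at 5.47, 5.34 and 7.74 on TG replicates 1 to 3, against 4.58, 4.58, 3.71 and 4.22 on WT replicates 1 to 4. All TG arrays were above all WT arrays, but the TG arrays were far apart (1.91 ± 0.61, adjusted p = 0.0968; 1.13 with TG replicate 3 left out). Ddx58 encodes RIG-I, the sensor of short RNA with a free triphosphate end. It was at 10.06, 9.84 and 9.86 on TG and 10.23, 10.21, 10.07 and 10.14 on WT arrays, lower on every TG array (-0.24 ± 0.07, adjusted p = 0.0926). Both other tested probe sets of Ddx58 had the same sign. Dhx58, encoding the regulator LGP2, ranged from 7.51 to 7.84 on TG and from 6.91 to 7.67 on WT arrays (adjusted p = 0.271). Zbp1, a sensor of Z-form nucleic acid that can trigger necroptosis, was at 7.94, 7.94 and 9.90 on TG and 8.02, 8.19, 6.42 and 7.19 on WT arrays. On this probe set TG replicates 1 and 2 were thus below the female WT arrays and above the male ones. On a dimmer probe set of Zbp1, TG replicate 1 (7.44) was above the female WT arrays (7.37 and 7.29). TG replicate 2 (6.71) was below them there. Trim25, the ubiquitin ligase that helps RIG-I signal, was at 11.63, 11.28 and 10.70 on TG and 11.43, 11.44, 11.64 and 11.42 on WT arrays. It was the 1 gene of the 30 that was lowest on TG replicate 3, and its difference of -0.28 ± 0.21 did not pass (adjusted p = 0.381).

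Usp18 is the protease that removes ISG15 from proteins and blocks the receptor. Its values were 6.03, 4.53 and 8.48 on TG replicates 1 to 3, against 3.48, 3.87, 2.91 and 3.62 on WT replicates 1 to 4. It was not above background on any WT array, so the TG mean gives a bound of at least 5.08-fold, with a spread of 2.0 (SD) over the 3 TG arrays, and it did not pass (limma adjusted p = 0.0843). Having entered the test through its TG values, it had to differ, and nothing is read from its fitted value. Isg15 itself, the ubiquitin-like modifier, was read by a probe set shared with Gm9706 and is not analysed here. Rtp4, a chaperone of receptors that binds viral RNA, was at 8.20, 7.13 and 8.90 on TG and 7.03, 6.91, 4.64 and 6.27 on WT arrays. Its groups did not overlap, though TG replicate 2 was close to WT replicate 1, and it did not pass (1.86 ± 0.68, adjusted p = 0.128).

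The IFIT proteins, which bind viral RNA ends, and the interferon-inducible GTPases, which attack the vacuoles of intracellular pathogens, were highest on TG replicate 3 and lowest on WT replicate 3 wherever tested, and none passed. Ifit2 was at 6.83, 6.95 and 8.34 on TG and 7.07, 6.81, 5.23 and 6.34 on WT arrays (adjusted p = 0.260). Ifit3 was at 5.90, 5.50 and 7.08 on TG and 5.69, 5.79, 4.40 and 5.65 on WT arrays (adjusted p = 0.317). Ifit1 was above background on TG replicate 3 alone, at 4.30. For these genes TG replicates 1 and 2 lay within or near the range of the WT arrays. Gbp2, a guanylate-binding protein, was at 9.20, 9.33 and 12.24 on TG and 9.57, 9.69, 8.17 and 8.89 on WT arrays (adjusted p = 0.353). Igtp, an immunity-related GTPase, was at 10.08, 10.01 and 12.53 on TG and 10.21, 10.01, 8.86 and 9.45 on WT arrays (adjusted p = 0.264). Gbp3 was at 10.63, 10.65 and 11.84 on TG and 10.93, 10.79, 10.23 and 10.66 on WT arrays (adjusted p = 0.450). For Gbp2, Igtp and Gbp3, TG replicates 1 and 2 were within the range of the WT arrays.

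**Figure D3:**
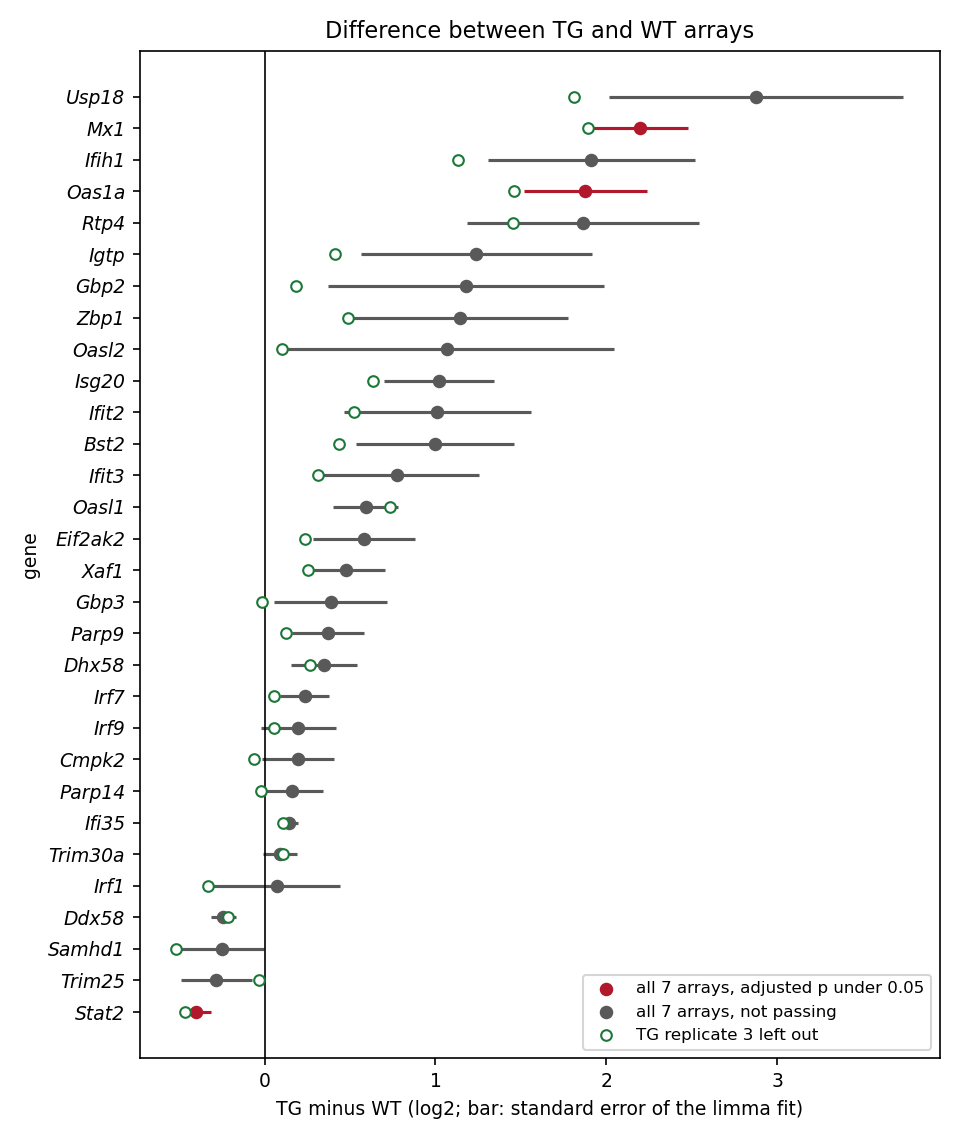
The fitted TG minus WT difference on the log2 scale is plotted for each of the 30 genes (filled points, with the standard error as bars; red where the adjusted p was under 0.05), beside the difference of means with TG replicate 3 left out (open green points). Most open points lie nearer to 0 than the filled ones: the median was 0.53 with all arrays and 0.21 without TG replicate 3.

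The brightest probe sets of the remaining effectors did not pass either. Eif2ak2 encodes PKR, the kinase that halts translation on sensing double-stranded RNA. Its brightest probe set was at 6.71, 6.56 and 7.66 on TG and 6.56, 6.56, 5.95 and 6.52 on WT arrays (0.58 ± 0.30, adjusted p = 0.241). A dimmer probe set separated the groups, at 5.81, 6.15 and 7.09 on TG and 4.80, 5.20, 4.58 and 5.16 on WT arrays. It passed (1.42 ± 0.32, limma adjusted p = 0.0439), so the probe sets of Eif2ak2 differ in call. The dimmest tested one also separated the groups, at 4.17, 4.07 and 6.21 on TG arrays and not above background on WT arrays. It did not pass (limma adjusted p = 0.125). Having entered the test through its TG values alone, it had to differ. Isg20, an exonuclease of single-stranded RNA, was at 8.0, 8.27 and 9.29 on TG and 7.44, 7.87, 7.21 and 7.48 on WT arrays, without overlap (1.02 ± 0.32, adjusted p = 0.0951). Bst2, or tetherin, which holds budding virions at the cell surface and also marks plasmacytoid dendritic cells, was at 7.56, 7.52 and 9.23 on TG and 7.05, 7.46, 6.53 and 7.38 on WT arrays (adjusted p = 0.203). The plasmacytoid list of 5 genes averaged 4.15, 4.23 and 6.19 on TG and 4.10 to 4.25 on WT arrays, with Cox6a2 not above background anywhere. Siglech (4.60) and Ccr9 (10.44) were above background on TG replicate 3 alone, while Pacsin1 was lowest there (8.62, against 8.87 to 9.31 elsewhere) and Klk1 was at 4.91. The part of such cells in the Bst2 values was not tested. Ifi35, which binds NMI, had the smallest difference of the genes without overlap, with values of 11.88 to 12.03 on TG and 11.76 to 11.86 on WT arrays (adjusted p = 0.118). Xaf1, which opposes the inhibitor of apoptosis XIAP, Cmpk2, a mitochondrial nucleotide kinase, and the modifiers Parp9 and Parp14 were all highest on TG replicate 3. Their differences lay between 0.16 and 0.48, with adjusted p from 0.213 to 0.579. Trim30a, a negative regulator of signalling, overlapped (adjusted p = 0.554).

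Samhd1, the triphosphohydrolase that lowers the pool of deoxynucleotides, was among the brightest of these genes. It was at 11.85, 11.66 and 12.56 on TG and 12.64, 12.31, 12.01 and 12.13 on WT arrays. TG replicates 1 and 2 were below every WT array and TG replicate 3 was second to WT replicate 1, and the difference did not pass (-0.25 ± 0.24, adjusted p = 0.512; -0.52 with TG replicate 3 left out). All 4 other tested probe sets of Samhd1 had the same sign. Over the whole list 12 genes had another tested probe set, and for 10 of them every one agreed in sign with the brightest. The others were Cmpk2 and Parp14. The other probe set of Cmpk2 held 5.09 on all 7 arrays and so has no sign, and that of Parp14 differed by -0.02 ± 0.29.

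Among the 6 genes that were not tested are some that interferon induces strongly in many cells. Rsad2, encoding viperin, was at 2.20, 2.21 and 2.97 on TG arrays and at 2.20 on every WT array. Cxcl10, a chemokine that draws T cells, was at 2.99, 3.16 and 5.07 on TG arrays and at 2.99 on every WT array. Cxcl10 and Ifit1 were thus above background on TG replicate 3 alone, and Mx2, Oas2, Oas3 and Rsad2 on no array.

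Array by array, the interferon-stimulated genes departed from the WT mean by a median of 0.31, 0.14 and 1.05 on TG replicates 1 to 3 and of 0.26, 0.17, -0.40 and -0.02 on WT replicates 1 to 4. TG replicates 1 and 2 therefore stood near the female WT arrays. TG replicate 3 was the highest array for 24 of the 30 genes, against 26.5% of all genes tested, and lay more than 1 above the mean of the other TG arrays for 15, against 5.37% of all genes. WT replicate 3 was the lowest for 22, against 21.6% of all genes. TG replicate 3 lay above every WT array for 25 (32.8% of all genes). TG replicates 1 and 2 both lay above every WT array for 9 (26.4% of all genes) and both below for 3 (12.9% of all genes), so without the third TG array these shares were near the background. Both male WT arrays lay below both female WT arrays for 20 of the 30, against 17.8% of all genes. These counts describe 7 arrays and carry no test, and sex and the individual mouse cannot be told apart with 2 WT mice of each sex. On TG replicate 3 the T cell genes Cd3d and Thy1 were at 10.70 and 10.78, against at most 2.25 on every other array. Gzmb was at 8.49 there, against at most 2.80. The other genes of the T cell and natural killer lists were also highest there, by less, except Prf1 and Ncr1. Cd8a was at 7.04 there, against 6.86 on TG replicate 2. Prf1 was at 7.36 there, below 7.93 and 8.06 on TG replicates 1 and 2, and Ncr1 was not above background. Ifng, encoding interferon gamma, was at 2.90 on TG replicate 3 and 2.17 elsewhere, not above background. The part of T cells and natural killer cells in these values was not tested.

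**Figure D4:**
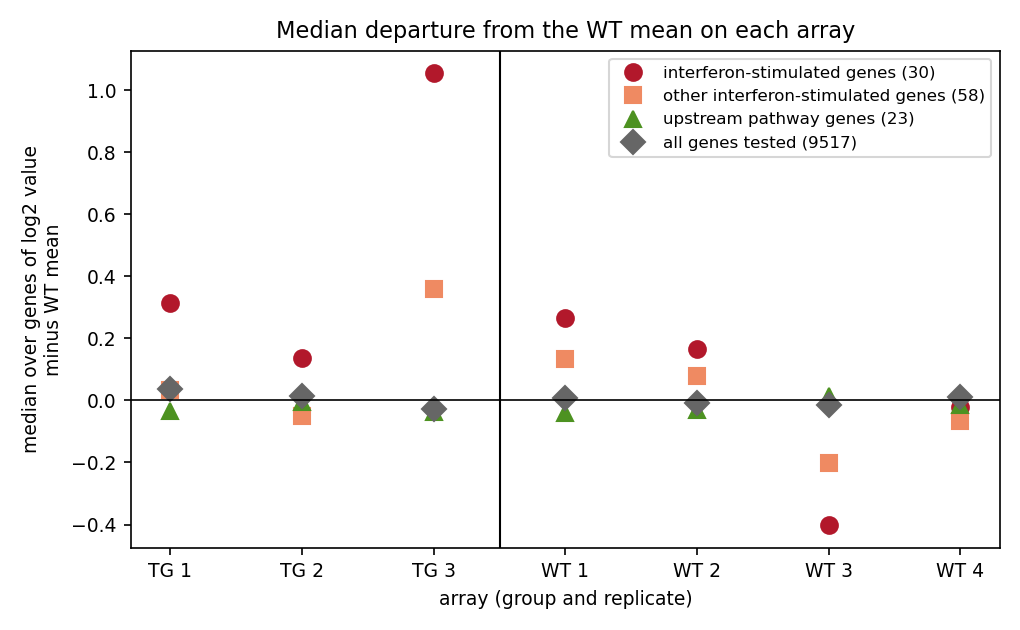
For each array the median over genes of the log2 value minus the mean of the 4 WT arrays is plotted for the interferon-stimulated genes (red circles), other interferon-stimulated genes (orange squares), genes upstream in the pathway (green triangles) and all genes tested (grey diamonds). The red circles stand at 1.05 on TG replicate 3 and -0.40 on WT replicate 3, while the green triangles and grey diamonds stay within 0.05 of 0 on every array.

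Genes that act before the response, from ligand to kinase, lay on both sides of the WT levels. Of 33 listed, 29 had a probe set and 23 were tested. Of these 3 passed as higher and 1 as lower, against 8.11% and 2.56% of all genes, and 10 were at an unadjusted p under 0.05, against 30.9% of all genes. The median difference was -0.04, and 0.01 with TG replicate 3 left out. The interferon genes Ifnb1, Ifna2 and Ifna4 were at the lowest value of the table, 2.17, on every array, and Ifna1 was not above background on any. Ifnar1, the receptor subunit that TYK2 binds, was at 8.83, 8.67 and 8.64 on TG and 9.01, 8.97, 9.16 and 9.14 on WT arrays. It was lower on every TG array and fell by 0.36 on the log2 scale (-0.36 ± 0.08, SE; limma adjusted p = 0.0404). Ifnar2, the other subunit, was at 9.61, 9.60 and 9.86 on TG and 9.54, 9.56, 9.39 and 9.74 on WT arrays (0.13 ± 0.10, adjusted p = 0.419). Tyk2 was at 10.17, 10.19 and 10.07 on TG and 10.15, 10.09, 10.23 and 10.03 on WT arrays (0.01 ± 0.06, adjusted p = 0.903). Both overlapped between the groups, as did Irf3, the factor that starts interferon transcription, at 11.30, 11.23 and 10.88 on TG and 11.29, 11.29, 11.51 and 11.24 on WT arrays (-0.20 ± 0.12, adjusted p = 0.295). Jak1 was lower on every TG array, at 12.09, 12.21 and 11.80 on TG and 12.43, 12.42, 12.43 and 12.27 on WT arrays, and did not pass (-0.35 ± 0.10, adjusted p = 0.0763).

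Tlr3, an endosomal sensor of double-stranded RNA, had the clearest difference upstream. It was at 9.60, 9.76 and 9.64 on TG and 9.08, 9.05, 8.73 and 8.93 on WT arrays, a rise of 0.72 ± 0.10 (SE; 1.65-fold; limma adjusted p = 0.0163). Ikbke, a kinase that activates IRF3 and a described target of miR-155, was at 8.71, 8.77 and 9.20 on TG and 8.52, 8.27, 8.22 and 8.16 on WT arrays, a rise of 0.60 ± 0.14 (adjusted p = 0.0499). Irf8, a factor of B cells and myeloid cells, was at 13.01, 13.03 and 13.18 on TG and 12.82, 12.78, 12.86 and 12.78 on WT arrays, and rose by 0.26 ± 0.05 (adjusted p = 0.0353). Socs1, a feedback inhibitor of JAK kinases and another described target of miR-155, was at 7.44 on TG replicate 3 and at 2.17 on every other array; it is named after its values were seen. None of these calls held in every leave-one-out fit. Without TG replicate 2 the adjusted p was 0.126 for Ifnar1, 0.0745 for Tlr3, 0.113 for Ikbke and 0.0951 for Irf8, and without WT replicate 2 it was 0.0780, 0.0514, 0.125 and 0.0973. Ifnar1 (0.0768 to 0.0957) and Irf8 (0.0692 to 0.0973) lost the call without any 1 of the WT arrays, Ifnar1 also without TG replicate 3 (0.0796), and Ikbke without any 1 of the 7 arrays (0.0512 to 0.125).

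A further list held 77 interferon-stimulated genes, of which 67 had a probe set and 58 were tested. Of these 4 passed as higher and 0 as lower (limma), against 8.11% and 2.56% of all genes, and 20 were at an unadjusted p under 0.05, against 30.9% of all genes. These shares were near the background. Ifitm1 was above a value of 4 on all TG arrays and no WT array. Ifitm2 was above it on all TG arrays and, among WT arrays, on replicate 4 alone. Both thus met the filter only through their TG values and had to differ. They are among the 20, and Ifitm2 is among the 4, and nothing is read from their tests. The median difference was 0.16, but -0.03 with TG replicate 3 left out and 0.0047 against the female WT arrays alone. Ifitm2 and Ifitm3 encode membrane proteins that block virus entry. Ifitm3 was at 10.04, 10.34 and 12.03 on TG and 5.74, 5.45, 6.48 and 8.37 on WT arrays, a rise of 4.29 ± 0.81 (SE, adjusted p = 0.0296). Ifitm2 was at 8.11, 8.78 and 10.49 on TG and 3.22, 3.38, 3.96 and 5.61 on WT arrays, and its rise was 4.72 with values under 4 set at 4 (adjusted p = 0.0175). WT replicate 4 was the highest WT array for both. Among WT arrays it also had the highest granulocyte (3.43), macrophage (5.02), conventional dendritic (4.26) and natural killer (3.08) list means. The B cell, plasmacytoid, T cell and erythroid list means were highest on other WT arrays. The part of other cells in these values was not tested. Lgals3bp, a secreted glycoprotein, was at 8.19, 8.19 and 10.24 on TG and 6.63, 5.90, 3.94 and 5.39 on WT arrays, and rose by 3.41 ± 0.77 (adjusted p = 0.0437). Ifi27l2a, of the mitochondrial family of interferon alpha-inducible protein 27, was at 12.37, 11.90 and 11.36 on TG and 10.90, 10.59, 10.50 and 11.11 on WT arrays, and rose by 1.10 ± 0.26 (adjusted p = 0.0484). Without TG replicate 2 the adjusted p was 0.0926 for Ifitm3, 0.0760 for Ifitm2, 0.103 for Lgals3bp and 0.136 for Ifi27l2a, and the number that passed was 0 (limma, 14 at an unadjusted p under 0.05). Ifitm3 lost the call also without TG replicate 3 (0.0595) or WT replicate 1, 2 or 3 (0.0739, 0.0838 and 0.0762), Ifitm2 without WT replicate 2 or 3 (0.0655 and 0.0547), and Lgals3bp without any 1 of the 7 arrays (0.0561 to 0.103). Ifi27l2a lost it also without TG replicate 1 (0.0747) or WT replicate 1, 2, 3 or 4 (0.0975, 0.126, 0.114 and 0.0780).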

How the data were processed

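Total RNA of splenic B cells was labelled with biotin and hybridised to 1 array per sample (3 TG, 4 WT). The authors' values came from GCRMA, per the submitters' processing notes, which state no version. The deposited table is in log2 units, judged from its range. GCRMA subtracts a background modelled on probe sequence and applies quantile normalization, and leaves 35.6% to 37.0% of the values of each array at the lowest value and compresses differences of dim genes. Array medians were 3.07, 3.10 and 3.41 (TG) and 2.97, 2.97, 2.97 and 2.98 (WT). Values are not centred by gene, and a higher value is a brighter probe set; no scan batch is labelled and none was tested.

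Of 45101 probe sets, 64 were controls, 34945 named 1 gene in the platform annotation, 932 several and 9160 none. The test was limma (version 3.58.1, R 4.3.3; lmFit, eBayes with intensity trend, prior degrees of freedom 1.68) on the 20994 probe sets above 4 on at least 3 arrays, with Benjamini-Hochberg adjustment over all of them, of which 1949 passed; the fit was tested on simulated data. The number of arrays limits the precision. Differences are TG minus WT. Each gene's value comes from its brightest probe set. Named with tests were members that passed, the 5 highest and 5 lowest differences and the main regulators, beside members needed to account for the list, and upstream and other interferon genes that passed or transduce the signal. The members, lists and rule were chosen with earlier results of these data known. Alternatives changed the filter, normalization, variance model, weights, probe sets, sex balance, block and arrays.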

Additional observations from a re-analysis of the deposited data

Results flagged for a closer look

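In 4 of the 30 interferon-stimulated genes tested, and in Jak1, 1 of the 4 WT arrays was set apart from the others. Its gap to its neighbour, as a share of the WT range, was beyond Dixon's critical value for 4 samples. Chance gives about 1 such group in 20 where values are not tied. The share over all genes was not counted, so no excess is read from this count. Of the upstream and other interferon-stimulated genes, only those named with tests were searched. WT replicate 3 was the low array for Ifit3 (4.40) and Eif2ak2 (5.95) and the high one for Trim25 (11.64). WT replicate 4 was low for Jak1 (12.27). WT replicate 1 was low for Irf7 (6.49), where the other WT arrays held 1 identical value of 6.53. That gap was only 0.04, and the ties alone put its share of the range past the critical value.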

How the results depend on the processing

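Mx1, Oas1a and Stat2 kept their sign in all 21 alternatives run, from 1.89 to 2.45, 1.39 to 2.18 and -0.51 to -0.34, with adjusted p from 0.00114 to 0.110, 0.00586 to 0.176 and 0.00418 to 0.178. The number passing was 3 of the 30 interferon-stimulated genes, 4 of the 23 upstream genes and 4 of the 58 other interferon-stimulated genes tested. It was 8, 8 and 13 with array weights, where Ifih1, Ddx58, Oasl1, Isg20 and Samhd1 also passed. It was 0, 0 and 0 with no filter (limma, 10, 10 and 18 at an unadjusted p under 0.05) and 0, 0 and 0 against the female WT arrays alone (4, 8 and 11), where 12 of all genes passed and there are fewer samples. It was 1, 1 and 1 with the Xist level as a covariate. With TG replicate 3 and WT replicate 4 both left out it was 1 and 1 for the first lists. The upstream count was 2 with no intensity trend, and the count of the other genes was 1 among probe sets above 4 on all 7 arrays. Leaving out 1 array at a time gave 0 to 3, 0 to 3 and 0 to 4 passing; it gave 0 for all lists without TG replicate 2 or WT replicate 2 (limma, 11, 9 and 14, and 10, 6 and 15, at an unadjusted p under 0.05), where 87 and 125 of all genes passed, and 0 for the other genes without WT replicate 3. The replicate numbers did not pair the arrays: deviations of same-numbered arrays correlated at -0.0883, -0.136 and -0.260. The fit with the replicate block, which leaves out WT replicate 4, passed 0, 0 and 0 (5, 7 and 12 at an unadjusted p under 0.05), and 3 of all genes.

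Among the 30 genes 23 kept their sign throughout, and 7 changed it at least once, none of which had passed. With array weights the difference was -0.0356 for Irf9, -0.43 for Irf1, -0.28 for Oasl2, -0.0037 for Gbp3, -0.0874 for Parp14 and -0.15 for Cmpk2. Against the female WT arrays alone it was -0.10 for Irf9, -0.27 for Irf1 and -0.0418 for Trim30a, and with the Xist covariate -0.11, -0.29 and -0.0451 for these and -0.0067 for Parp14. Without TG replicate 3 and WT replicate 4 it was -0.38 for Irf1, -0.0093 for Gbp3, -0.0263 for Parp14 and -0.0455 for Cmpk2. Leaving out 1 array at a time gave -0.33 (TG replicate 3) to 0.33 for Irf1, -0.0124 (TG replicate 3) to 0.59 for Gbp3, -0.0223 (TG replicate 3) to 0.30 for Parp14 and -0.0635 (TG replicate 3) to 0.38 for Cmpk2, and Irf1 was also negative without WT replicate 3 (-0.11). Upstream, Tyk2 was at -0.0187 with the replicate block and at -0.0187 (without WT replicate 4) to 0.0510 with 1 array left out. The causes were not tested. Genes at the lowest value have no measurable order, and background limits the differences of Usp18, Ifih1, Oasl2 and Ifitm2. Some probe sets also held 1 identical value above 4 on several arrays. Irf7 was at 6.53 on WT replicates 2 to 4, and Eif2ak2 at 6.56 on TG replicate 2 and WT replicates 1 and 2. Arrays that share a value in this way cannot be ranked against each other.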
